A study of Mus musculus with 12 samples.

Results

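A20, the protein of the Tnfaip3 gene, and a group of genes that write, edit or read ubiquitin chains beside it were followed through a first and a second exposure of macrophages to lipopolysaccharide (LPS), which makes up much of the outer surface of Gram-negative bacteria. The 10 genes were taken by name: Tnfaip3, Tnip1, Tnip2, Tnip3, Cyld, Tank, Traf1, Traf2, Birc2 and Birc3. Of these, 9 had a probe set with a single gene symbol, out of 18193 genes measured in the series. Tnip3 was carried by no such probe set and was not analysed here, apart from its promoter. Each gene is represented by its brightest probe set, taken as the one with the highest average across all 12 arrays.

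The cells were bone-marrow macrophages of C57Bl/6 mice, differentiated with M-CSF, the growth factor of macrophages, and RNA was measured on Affymetrix arrays. Restimulated cells received 100 ng/ml LPS for 18 h, new medium, a rest of 2 h and then 100 ng/ml LPS again. Pretreated cells received the same first LPS, medium exchange and rest and no LPS after it, LPS once cells received LPS only after the rest, and untreated cells received none. Each of the 4 groups held 3 biological replicates, lettered A to C, and the labels do not say whether these came from separate animals, so p-values measure the spread between these cultures. How long the last LPS acted is not given in the sources used, and the number of arrays limits the precision of every value.

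LPS binds Toll-like receptor 4, and the signal is carried to the transcription factor NF-kappaB by kinases that gather on ubiquitin chains. A20 edits such chains and dampens the signal, and its own gene is a target of NF-kappaB, so that it forms a feedback brake; the Tnip genes encode the ABIN proteins, which bind A20 and ubiquitin, and Cyld encodes another deubiquitinase. Traf2, Birc2 and Birc3 (the cellular inhibitors of apoptosis cIAP1 and cIAP2) encode ubiquitin ligases or their partners that also build chains which carry the signal, so the group holds more than brakes.

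Before the results, the array of restimulated replicate C stood apart. The mean over its probe sets was 246.7 intensity units, where the other 11 arrays had 310.0 to 317.0. Over 6228 genes of mid-range intensity the median log2 distance from the remaining restimulated arrays was -0.52, and 91.6% of the genes lay lower. Where leaving out this array ends a call, or moves a value of the genes named above by much, the value without it is given. For genes of the surrounding pathway it was computed for called values only, so their other values may rest on this array. All 8 macrophage markers were measured, and their summed intensity was 56600 to 65200 in restimulated, 61500 to 63600 in pretreated, 55500 to 57100 in LPS once and 58500 to 59700 in untreated cells. A few bright genes such as Lyz2 carry this sum, and single markers differed between groups, as Itgam, with a mean of 5157 in restimulated, 5764 in pretreated, 2108 in LPS once and 2965 in untreated cells, and Mertk, with 431 in restimulated, 1598 in pretreated, 137 in LPS once and 1669 in untreated cells. Of the markers of other cell types that were measured, the sum of 4 fibroblast markers was 157 to 2690 in restimulated, 163 to 2480 in pretreated, 157 to 3130 in LPS once and 118 to 3490 in untreated cells. It followed the replicate letter, with Col1a1 and Col3a1 high on the A and B arrays and low on the C arrays of every group. The 5 neutrophil precursor markers summed to 197 to 413 in restimulated, 153 to 349 in pretreated, 270 to 1470 in LPS once and 170 to 1130 in untreated cells. T, B, NK, mast and erythroid cell markers lay under 100 on all arrays except Cd4, which reached 137. The part of these cells in the results was not tested, and in bulk RNA fewer cells of a type and less RNA per cell cannot be told apart.

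The promoters of the genes are shown first. Some of the genes were called higher after both LPS exposures and others after the first and not the second. Whether promoter matches relate to that split was not tested. The windows run from 250 bases before to 50 after the start site, are 300 bases long and come from RefSeq, build GRCm38.p6, which had a window for all 10 genes. The consensus of NF-kappaB, 10 bases long, was searched on both strands, and matches to it are in capitals. The printed Tnfaip3 window holds 2 matches that do not overlap, beginning at -125 and at -12 from the start site. The Tnip1 window holds 3 overlapping matches that begin at -58, -57 and -56 and share 1 run of capitals. The printed Tank window has 1 match at -72, and Birc2, which was called higher in the first response and not in the second, is shown as a window without a match. Some genes have windows for further start sites. In another Tank window the same match lies at -127, and its remaining windows hold none, as does another Tnfaip3 window.

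Tnfaip3 promoter, chr10:19015361-19015660, minus strand: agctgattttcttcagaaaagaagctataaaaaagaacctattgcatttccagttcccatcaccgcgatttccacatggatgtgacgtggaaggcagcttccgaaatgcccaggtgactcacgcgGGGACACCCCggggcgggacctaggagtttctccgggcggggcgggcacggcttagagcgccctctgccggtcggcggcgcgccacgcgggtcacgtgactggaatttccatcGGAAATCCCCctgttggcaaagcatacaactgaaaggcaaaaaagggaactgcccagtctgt
Tnip1 promoter, chr11:54962891-54963190, minus strand: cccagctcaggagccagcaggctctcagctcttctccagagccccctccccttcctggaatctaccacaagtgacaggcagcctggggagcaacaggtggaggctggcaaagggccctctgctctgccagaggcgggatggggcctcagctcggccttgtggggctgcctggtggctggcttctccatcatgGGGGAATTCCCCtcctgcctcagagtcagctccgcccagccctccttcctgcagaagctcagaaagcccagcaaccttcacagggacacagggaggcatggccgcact
Tank promoter, chr2:61592847-61593146, plus strand: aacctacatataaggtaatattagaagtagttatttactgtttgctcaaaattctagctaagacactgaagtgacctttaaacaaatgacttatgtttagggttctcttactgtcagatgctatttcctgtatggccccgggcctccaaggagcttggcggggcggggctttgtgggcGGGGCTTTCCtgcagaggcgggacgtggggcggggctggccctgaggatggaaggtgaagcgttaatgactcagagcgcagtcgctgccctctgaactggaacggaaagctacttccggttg
Birc2 promoter, chr9:7837008-7837307, minus strand: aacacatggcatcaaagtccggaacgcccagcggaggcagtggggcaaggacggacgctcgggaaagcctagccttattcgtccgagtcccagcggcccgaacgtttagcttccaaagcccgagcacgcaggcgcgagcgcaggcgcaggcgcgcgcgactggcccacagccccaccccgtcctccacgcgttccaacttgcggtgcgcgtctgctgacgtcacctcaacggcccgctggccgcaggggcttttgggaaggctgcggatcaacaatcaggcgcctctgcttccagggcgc

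The consensus was present in a window of 5 of the 10 genes, Cyld, Tank, Tnfaip3, Tnip1 and Tnip3, against 1388 of 27025 genes (5.14%), or 1480 of 32851 windows (4.51%). Of the 5 genes called higher in both LPS responses it was found in Tank, Tnfaip3 and Tnip1 and not in Traf1 or Birc3. Of the 3 called higher in the first response and not in the second, Birc2, Tnip2 and Traf2, none had a match. This split rests on calls alone, and the difference between the responses was not called for Tnip2 or Traf2. The AP-1 motif TGANTCA was found in Tnfaip3 and Tank, at -136 and -6 in the printed windows, where it is not in capitals. Of all genes 8.97% had it, and 7.81% of windows. Neither motif's matches overlap the other's in the printed windows. A match is a run of letters and does not show that a factor binds there, and a window without one says nothing about sites elsewhere.

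The comparison of LPS once with untreated cells asked how the genes respond in cells that had not met LPS. In this first response 8 of the 9 measured genes were called higher and none lower. Of all genes measured 3.90% were higher and 9.10% lower by limma, where a gene was called at a Benjamini-Hochberg adjusted p under 0.05 and at least 2-fold. The median log2 fold change of the 9 genes was 1.67, against 0.04 over all genes. Values over all genes, here and below, include many dimmer genes, while all 9 genes had a mean intensity of at least 50. Among the 9872 genes with such a mean the median was -0.239, with 7.30% called higher and 16.6% lower. Fold changes are on the scale of log2(intensity + 16), which understates the change of dim genes, and errors beside them are standard errors of the fit. Where arrays of a gene are said not to overlap between groups, how many of all genes did the same was not counted.

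Tnfaip3 had 8061, 10315 and 10279 intensity units on the LPS once arrays A, B and C, against 797, 522 and 565 on the untreated arrays. All 3 LPS once arrays lay far above the untreated ones, and the means were 9552 ± 1291 in LPS once and 628 ± 148 in untreated cells (SD, n = 3 each). The log2 fold change was 3.91 ± 0.41 (SE), or 15.0-fold (limma adjusted p = 0.000104). Within the letters A, B and C the log2 difference was 3.31, 4.26 and 4.15.

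Among the partners of A20, Tnip1 (ABIN-1) had 6226, 7233 and 7092 intensity units in LPS once and 1332, 1187 and 1304 in untreated cells. The groups did not overlap, and Tnip1 rose by 2.41 ± 0.18 on the log2 scale (limma adjusted p = 1.9e-05). Tnip2 (ABIN-2), which also binds the kinase Tpl2, had 561, 459 and 311 intensity units in LPS once and 219.9, 186 and 206 in untreated cells. It rose by 1.03 ± 0.24 (limma adjusted p = 0.00916), just past the 2-fold minimum, and did not reach it when 64 was added before taking log2 (0.89) or without LPS once A (0.84), LPS once B (0.98) or untreated B (0.97). Cyld, the deubiquitinase outside the A20 complex, had 856, 811 and 861 intensity units in LPS once and 657, 656 and 691 in untreated cells. Its arrays did not overlap between the groups, but the log2 difference of 0.33 ± 0.17 did not pass the test (limma adjusted p = 0.166, 95% interval -0.05 to 0.71).

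**Figure D1:**
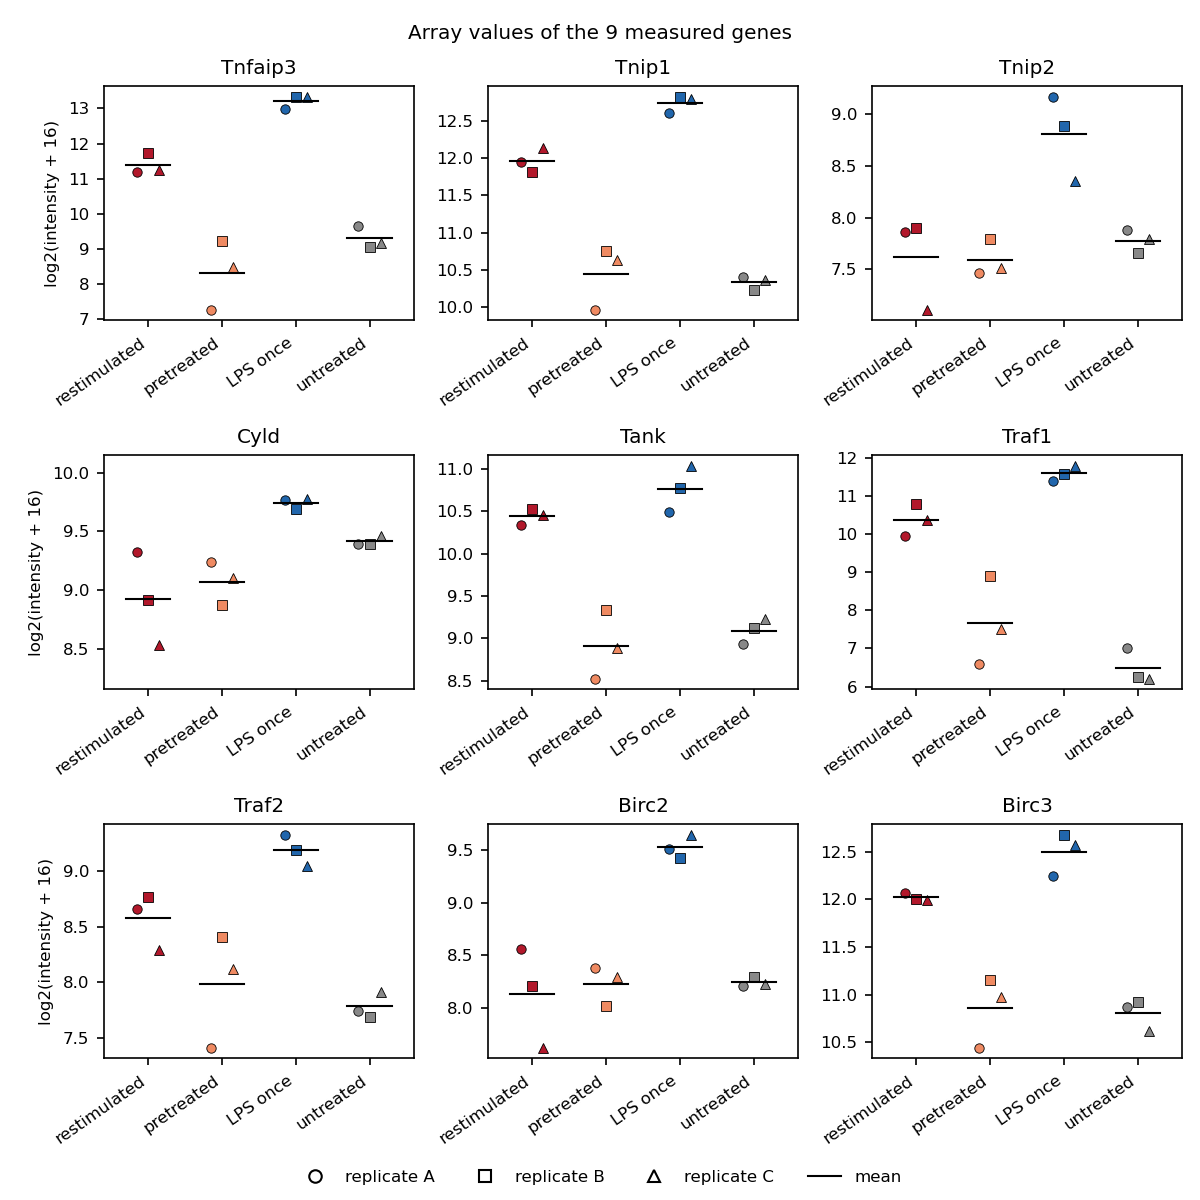
Each panel plots 1 gene, with log2(intensity + 16) on the vertical axis and the 4 groups along the horizontal axis; points are arrays, shaped by replicate letter, and lines are group means. LPS once has the highest mean in all 9 panels, and the restimulated arrays of Tnfaip3, Tnip1, Tank, Traf1 and Birc3 lie above all their pretreated arrays, while those of Tnip2, Cyld, Traf2 and Birc2 overlap them.

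Tank, a scaffold that joins TRAF proteins to the kinases TBK1 and IKK-epsilon and restrains Toll-like receptor signalling in mouse macrophages, had 1421, 1727 and 2082 intensity units in LPS once and 473, 539 and 584 in untreated cells. It rose by 1.67 ± 0.20 on the log2 scale (limma adjusted p = 0.000206). Traf1, an adaptor without the RING domain of other TRAF proteins that pairs with Traf2, had 2688, 3054 and 3543 intensity units in LPS once and 113, 59.6 and 57.7 in untreated cells. Its rise of 5.11 ± 0.49, or 34.5-fold, had the largest size of the 9 (limma adjusted p = 6.88e-05), and it was 4.38, 5.34 and 5.59 within the letters A, B and C.

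Traf2, the RING adaptor that brings the cIAP ligases to receptor complexes, had 627, 568 and 512 intensity units in LPS once and 198, 190.4 and 225 in untreated cells, a rise of 1.40 ± 0.23 (limma adjusted p = 0.00119). Birc2 (cIAP1) had 710.2, 672 and 783 in LPS once and 281, 298 and 285 in untreated cells, and rose by 1.28 ± 0.20 (limma adjusted p = 0.000934). Birc3 (cIAP2), its neighbour and paralogue, had 4850.4, 6538 and 6077 in LPS once and 1852, 1929 and 1558 in untreated cells, and rose by 1.70 ± 0.18 (limma adjusted p = 0.000101). In all 3 genes every LPS once array lay above every untreated array. The calls of Tnfaip3, Tnip1, Tank, Traf1, Traf2, Birc2 and Birc3 in this comparison held in every alternative, and without restimulated C all 8 genes were called.

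The comparison of pretreated with untreated cells asked what was left of the first LPS after the rest. Limma called none of the 9 genes higher or lower. At p under 0.05 without adjustment 1 was higher and 1 lower, beside 1056 higher and 1133 lower of all 18193 genes. Over all genes 0.291% were called higher and 0.308% lower, or 53 and 56 genes, and 100 and 97 with the replicate letter as a block. The median log2 difference of the 9 genes was -0.02, against 0.02 over all genes. So the genes that LPS had raised in LPS once cells were not called different in pretreated and untreated cells, but the intervals leave room for changes of some size in several of them.

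Tnfaip3 had 139, 584 and 342 intensity units on the pretreated arrays A, B and C, which overlap the untreated values of 522 to 797. Its log2 difference was -0.98 ± 0.41 (limma adjusted p = 0.376, 95% interval -1.89 to -0.07), and within the letters A, B and C it was -2.39, 0.16 and -0.70. Traf1 lay the other way, with 80.6, 458 and 166 intensity units in pretreated cells and 57.7 to 113 in untreated cells, a log2 difference of 1.18 ± 0.49 (limma adjusted p = 0.376, 95% interval 0.08 to 2.28). Its within-letter differences were -0.42, 2.65 and 1.31, so the letters did not share a direction for either gene. Without pretreated A the difference was -0.45 for Tnfaip3 and 1.71 for Traf1, and without pretreated B it was -1.43 for Tnfaip3 and 0.57 for Traf1.

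The other 7 genes lay within 0.35 of the untreated mean on the log2 scale. Tnip1 had 981.5, 1702 and 1565 intensity units in pretreated cells, Tnip2 160.0, 205 and 166, and Cyld 589, 453 and 533. All 3 pretreated arrays of Cyld were below the untreated ones, a log2 difference of -0.35 ± 0.17 (limma adjusted p = 0.481), whereas Tnip1 and Tnip2 overlapped between the groups. Tank had 352, 632 and 456 intensity units, Traf2 had 154, 325 and 262, Birc2 had 317, 243 and 299, and Birc3 had 1377, 2264 and 1992. In these genes the pretreated arrays differed among themselves: A was the lowest of the 3 in 7 of the 9 genes, and B the highest in 7, the exceptions being Cyld and Birc2. Over 6228 genes of mid-range intensity the median log2 distance from the remaining pretreated arrays was -0.04 for A and -0.01 for B. Of those genes 55.1% lay lower on A and 51.5% on B.

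The comparison of restimulated with pretreated cells gave the response of cells with an earlier LPS exposure. Tnfaip3, Tnip1, Tank, Traf1 and Birc3 were called higher again, 5 of the 9 genes, and none was called lower. Over all genes 0.665% were higher and 1.29% lower. Traf2, Tnip2, Birc2 and Cyld were not called. The median log2 fold change of the 9 genes was 1.17, against -0.02 over all genes. Among the 9872 genes with a mean intensity of at least 50 it was -0.2, with 1.51% called higher and 3.17% lower.

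Tnfaip3 had 2332, 3383 and 2414 intensity units on the restimulated arrays A, B and C, against 139, 584 and 342 on the pretreated arrays. The rise was 3.06 ± 0.41 on the log2 scale, or 8.36-fold (limma adjusted p = 0.00668), and 3.92, 2.50 and 2.76 within the letters. Tnip1 had 3923, 3574 and 4467 intensity units in restimulated cells and 981.5 to 1702 in pretreated cells, and rose by 1.52 ± 0.18 (limma adjusted p = 0.0046). Both genes had every restimulated array above every pretreated and every untreated array.

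Tank had 1280.4, 1455 and 1384 intensity units in restimulated cells and 352 to 632 in pretreated cells, a rise of 1.52 ± 0.20 (limma adjusted p = 0.00645). Traf1 had 979.9, 1747.5 and 1311 in restimulated cells and 80.6 to 458 in pretreated cells, a rise of 2.71 ± 0.49 (limma adjusted p = 0.0195). Birc3 had 4275, 4102 and 4076 in restimulated cells and 1377 to 2264 in pretreated cells, a rise of 1.17 ± 0.18 (limma adjusted p = 0.0105). The 3 restimulated arrays of Birc3 lay close together, and its pretreated arrays were spread wider.

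Traf2 had 389, 421 and 297 intensity units in restimulated cells, which overlap the pretreated 154 to 325, and its log2 difference was 0.59 ± 0.23 (limma adjusted p = 0.181, 95% interval 0.09 to 1.10). Tnip2 had 216, 222 and 122 in restimulated cells, a log2 difference of 0.03 ± 0.24 from pretreated cells (95% interval -0.51 to 0.58). Birc2 had 361, 281 and 182 and a difference of -0.10 ± 0.20 (95% interval -0.54 to 0.34). Cyld had 626, 466 and 353 and a difference of -0.15 ± 0.17 (95% interval -0.53 to 0.23). For these last 3 genes the groups overlapped, the interval excluded a 2-fold rise, and restimulated C was the lowest of its group; without it the differences were 0.29, 0.15 and 0.05.

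**Figure D2:**
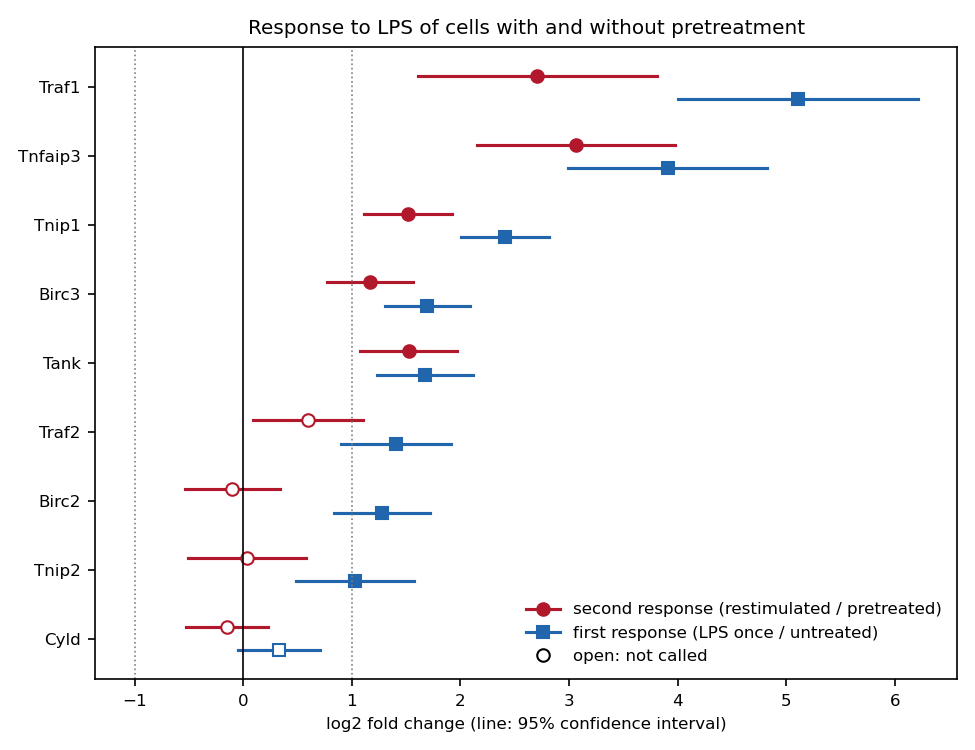
The log2 fold change of each gene in the second response (restimulated over pretreated, red circles) and in the first (LPS once over untreated, blue squares) is plotted on the horizontal axis with its 95% confidence interval, n = 3 arrays per group; open symbols were not called and dotted lines mark 2-fold. The second response lies left of the first in all 9 genes, with values of 3.06 against 3.91 for Tnfaip3, 1.52 against 1.67 for Tank and -0.10 against 1.28 for Birc2.

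All 5 calls of the second response rest on a spread estimated from all 12 arrays. On the 6 arrays of these groups alone the values are the same and none was called, with limma adjusted p from 0.118 for Tank to 0.182 for Traf1, where 1 gene of the whole table was called higher and none lower. Without restimulated C, Tnfaip3, Tnip1, Tank and Birc3 were called, at 3.14, 1.43, 1.52 and 1.18. Traf1 was then at 2.71 and an adjusted p of 0.0573, and it was also lost without pretreated A (0.0544) or pretreated C (0.0908). Birc3 fell short of 2-fold without pretreated A (0.96), which left 3 called genes, and with the mean of all its probe sets (0.77).

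The interaction, the second response minus the first, asked whether pretreated cells responded less. It was negative for all 9 genes, although that of Tank turned to 0.06 without pretreated B and 0.002 after quantile normalization, with a median of -0.84 against -0.02 over all genes, and limma called 1 of the 9, Birc2. At an unadjusted p under 0.05 there were 5 with a lower second response, where 1629 of all 18193 genes had one. Over all genes 1.23% were called with a higher and 1.44% with a lower second response. Among the 9872 genes with a mean intensity of at least 50 these shares were 2.85% and 3.22%, and the median was 0.06. Within the letters 6 of the 9 genes had a negative value in all 3, the exceptions being Tnfaip3, Tank and Birc3, which were positive in letter A. How many of all genes shared a sign across the letters was not counted.

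Birc2 had a second response of -0.10, against 1.28 in the first, an interaction of -1.38 ± 0.28 (limma adjusted p = 0.0285). Its interaction was -1.11, -0.94 and -2.08 within the letters A, B and C, and -1.12 (limma adjusted p = 0.0077) without restimulated C. The call was lost on leaving out any of 8 other arrays, among them all 3 untreated ones, at adjusted p of 0.051 to 0.0773, with values from -1.30 to -1.43.

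Traf1 had the most negative value of the 9, -2.40 ± 0.70 (limma adjusted p = 0.101), with 2.71 in the second response against 5.11 in the first. Tnip1 had -0.89 ± 0.26 (limma adjusted p = 0.0964) and Traf2 -0.81 ± 0.32 (limma adjusted p = 0.221). These 3 genes were called without pretreated A, at -2.93, -1.14 and -1.10. Tnip2 had -0.99 ± 0.34 (limma adjusted p = 0.165) and was called when arrays were scaled to a common 75th percentile (-1.02), and its value was -0.74 without restimulated C.

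For Tnfaip3 the second response was 3.06 and the first 3.91, and the interaction of -0.84 ± 0.58 did not pass the test (limma adjusted p = 0.527, 95% interval -2.14 to 0.45). It was 0.61, -1.76 and -1.38 within the letters A, B and C; pretreated A, with 139 intensity units, was the lowest of all 12 arrays for this gene. Without pretreated A the interaction was -1.37 (limma adjusted p = 0.0904), without pretreated B it was -0.39, and with the mean of both probe sets it was -1.71 (limma adjusted p = 0.0761). Tank had -0.15 ± 0.28 (95% interval -0.77 to 0.48), Birc3 -0.53 ± 0.25 (95% interval -1.09 to 0.03) and Cyld -0.48 ± 0.24 (95% interval -1.02 to 0.06), or -0.28 without restimulated C. The interval of Tank excluded a difference of 2-fold between the responses, which is not the same as equal responses. That of its dimmer second probe set, -1.64 to 0.38 around -0.63, did not exclude it.

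The comparison of restimulated with LPS once cells set the levels reached after LPS side by side. LPS once had the highest mean in all 9 genes, and Tnfaip3, Tnip2 and Birc2 were called lower in restimulated cells, 3 of the 9, with none higher. Over all genes 2.48% were called higher and 3.18% lower. The median log2 difference of the 9 genes was -0.82, against -0.00 over all genes. Among the 9872 genes with a mean intensity of at least 50 it was 0.02, with 4.96% called higher and 6.29% lower. At p under 0.05 without adjustment 8 of the 9 genes lay lower, where 2461 of all 18193 genes did. This comparison shares the LPS once arrays with the first response, and the restimulated arrays with the second.

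Tnfaip3 had 2332 to 3383 intensity units in restimulated cells, against 8061 to 10315 in LPS once cells. The log2 difference was -1.82 ± 0.41, or 3.54-fold lower (limma adjusted p = 0.0152), and -1.78, -1.60 and -2.08 within the letters. The call was lost without LPS once B (adjusted p = 0.0503) or LPS once C (adjusted p = 0.0547). Birc2 had 182 to 361 in restimulated and 672 to 783 in LPS once cells, a difference of -1.39 ± 0.20 (limma adjusted p = 0.0016), called in every alternative and at -1.14 without restimulated C. Tnip2 had 122 to 222 in restimulated and 311 to 561 in LPS once cells, a difference of -1.19 ± 0.24 (limma adjusted p = 0.00998), which was -0.93 and under 2-fold without restimulated C and not called on only the arrays compared (adjusted p = 0.0951).

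Tnip1 and Cyld passed the adjusted p but not the 2-fold minimum, with log2 differences of -0.78 ± 0.18 (limma adjusted p = 0.0177) and -0.82 ± 0.17 (limma adjusted p = 0.0103). The value of Cyld was -0.63 without restimulated C, and -1.03 and called without restimulated A. Traf1 had -1.22 ± 0.49 (limma adjusted p = 0.141, called at 0.0472 on only the arrays compared and at 0.0326 without pretreated B), Traf2 -0.61 ± 0.23 (limma adjusted p = 0.108) and Birc3 -0.48 ± 0.18 (limma adjusted p = 0.109). In all 5 of these genes every restimulated array lay below every LPS once array, and for how many of all genes this held was not counted. Tank was the gene whose groups overlapped, with 1280.4 to 1455 in restimulated and 1421 to 2082 in LPS once cells and a difference of -0.33 ± 0.20 (limma adjusted p = 0.349).

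The order of the 4 group means differed among the genes below LPS once. In Tnfaip3, Tank, Tnip1, Traf1 and Birc3 restimulated cells came second, apart from both groups without a last LPS, whose arrays overlapped each other. In Traf2 restimulated cells also came second, but overlapped the pretreated arrays. In Tnip2 and Birc2 the restimulated, pretreated and untreated arrays overlapped. Cyld was highest in LPS once cells, followed by untreated cells, and its pretreated and restimulated arrays lay below both and overlapped.

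Of the 9 genes 5 had more than 1 probe set, 16 probe sets in all, and no gene had probe sets called in opposite directions. Further probe sets were tested in a fit over all 34945 probe sets with 1 symbol. The second probe set of Tnfaip3 had 431, 746 and 403 intensity units in restimulated, 87.9, 117 and 92.7 in pretreated, 2312, 4635 and 4665 in LPS once and 145, 111 and 108 in untreated cells. It was higher in both responses, by 2.19 ± 0.30 in the second and 4.76 ± 0.30 in the first. Here the interaction of -2.57 ± 0.42 was called lower (limma adjusted p = 0.0157), where the brightest probe set gave -0.84. So the 2 probe sets of Tnfaip3 differed in whether a smaller second response passed the test, and in both the level was lower in restimulated than in LPS once cells, with the second at -2.82 ± 0.30 (limma adjusted p = 0.000483).

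**Figure D3:**
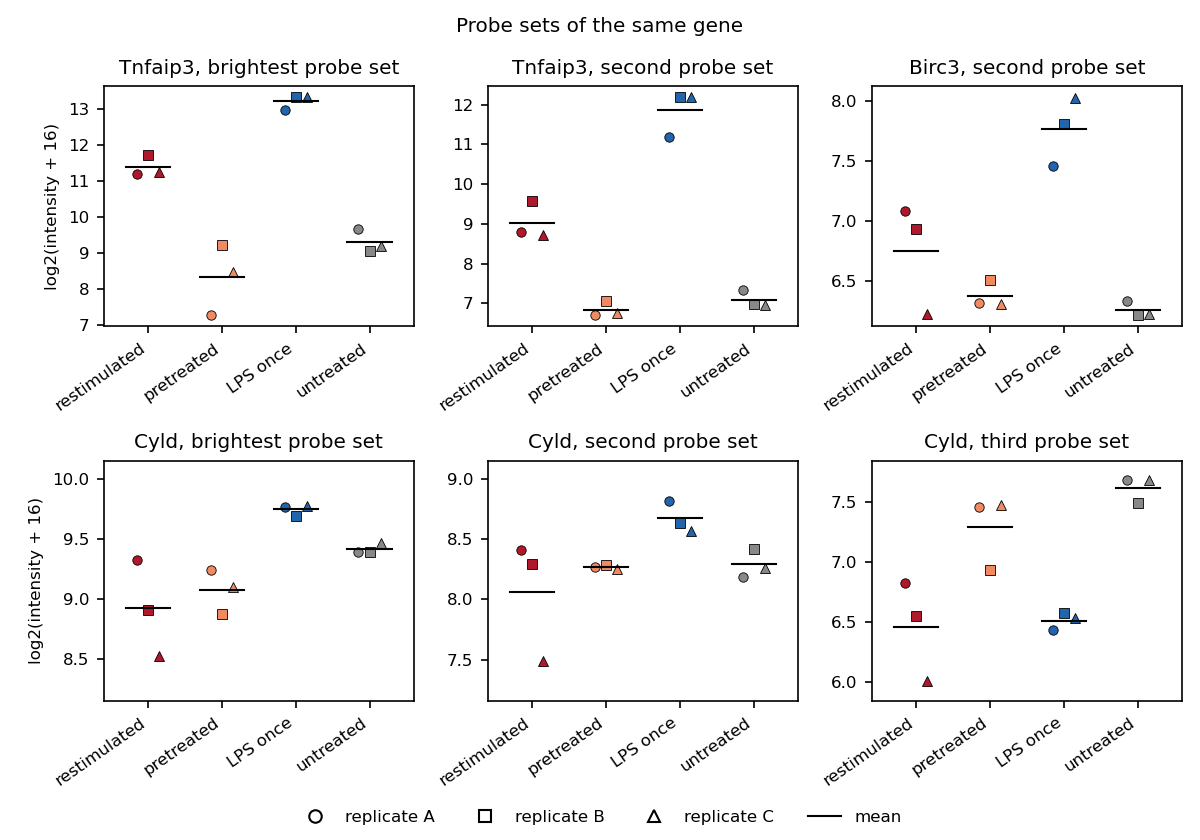
Panels plot single probe sets of Tnfaip3, Birc3 and Cyld, with log2(intensity + 16) on the vertical axis and the 4 groups along the horizontal axis; points are arrays, shaped by replicate letter, and lines are group means. The pretreated arrays of Tnfaip3 are spread from 139 to 584 intensity units in the brightest probe set and from 87.9 to 117 in the second, and the third probe set of Cyld has its highest mean in untreated cells, unlike the other 2.

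Cyld had 4 probe sets, which did not move together. The brightest pair had log2 differences of 0.33 and 0.385 in the first response, neither called. The third had 70.3, 79.5 and 76.5 intensity units in LPS once and 189, 164 and 189 in untreated cells and was called lower, at -1.11 ± 0.20 (limma adjusted p = 0.00299). Its second response was -0.83 ± 0.20 (limma adjusted p = 0.0656), and the fourth probe set stayed between 15.5 and 20.1 intensity units on all 12 arrays. The sources used here do not say which transcripts these probe sets detect.

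The second probe sets of the other genes bore on the second response. That of Tank was higher in both, by 1.52 ± 0.32 in the second (limma adjusted p = 0.0404) and 2.15 ± 0.32 in the first. That of Traf1 had 1.66 ± 0.45 in the second response, which was not called (limma adjusted p = 0.0863), 4.06 ± 0.45 in the first, and the same interaction of -2.40 as the brightest. That of Birc3, far dimmer, had 120.0, 106 and 58.9 intensity units in restimulated and 63.8, 74.98 and 63.6 in pretreated cells, a difference of 0.37 ± 0.21 (limma adjusted p = 0.396). It was called higher in the first response, at 1.51 ± 0.21, and lower in restimulated than in LPS once cells, at -1.02 ± 0.21 (limma adjusted p = 0.0125). Its interaction was -1.14 ± 0.30 (limma adjusted p = 0.0843), where the brightest probe set of Birc3 gave -0.53.

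Across the 12 arrays, Tnfaip3, Tnip1, Tank, Traf1 and Birc3 which were grouped by their rise in both responses, had Pearson r from 0.918 to 0.987 over their 10 pairs. Traf2, outside that group, had r from 0.891 to 0.934 with them. Over all 36 pairs of the 9 genes r ran from 0.143 to 0.987. These values describe arrays that share 4 group means, cell preparations and scaling. Among genes whose group means spanned at least 2-fold, the 5 profiles most like Tnfaip3 were those of Ralgds (r = 0.990), Spred1, Tnf, Tnfaip2 and Nfkb2. Those most like Tnip1 were Cebpd (r = 0.996), Birc3, Socs3, Icam1 and Samsn1, and those most like Birc3 were Cdc42ep2 (r = 0.989), Tnip1, Cebpd, Rest and Socs3. For Tank they were Zc3h12c (r = 0.993), Ccl3, Tnf, Trim13 and Rest, and for Traf1 Cxcl1 (r = 0.990), Jak2, Dst, Cdc42ep2 and Gch1.

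For Birc2, called higher in the first response and not in the second, the most similar profiles were Cdc42ep4 (r = 0.980), Med21, Slc49a4, Map3k8 and Tpgs2. For Tnip2 they were Ccdc58 (r = 0.969), Snapc1, Anxa7, Tmtc2 and Gtf2f2, and for Traf2 Eif6 (r = 0.978), Ube2f, Zfp719, Stx11 and Stard7. The group means of Cyld spanned less than 2-fold, so no neighbours were sought.

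The surrounding pathway was read from 3 lists of genes, chosen by function but with earlier results of these data known. Of 10 partners of A20 and other deubiquitinases 9 were measured, Optn not being analysed here. In the first response 1 was called higher and 1 lower, beside 3.90% higher and 9.10% lower over all genes. The median was 0.38 against 0.04 over all genes. Tax1bp1, an adaptor that A20 uses to reach its targets, had 4410 to 4411 intensity units on LPS once A and B and 3137 on C, against 1767 to 1842 in untreated cells, and rose by 1.12 ± 0.13 (limma adjusted p = 0.000209). Otud1, a deubiquitinase, had 56.5 to 125 in LPS once and 146 to 231 in untreated cells and fell by 1.14 on the log2 scale, ± 0.29 (limma adjusted p = 0.0124); that call was lost in 4 settings, with 64 added before log2 (-0.84), after quantile normalization (-0.87), with a common 75th percentile (-0.90) and without LPS once B (-0.95).

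In the second response none of these 9 was called by limma and none passed an unadjusted p under 0.05, and the largest differences were -0.24 ± 0.12 for Itch, a ubiquitin ligase, and -0.17 ± 0.24 for Spata2, a partner of Cyld. Tax1bp1 had 1597 to 2016 intensity units in restimulated cells and was lower than in LPS once cells, a log2 difference of -1.12 ± 0.13 (limma adjusted p = 0.000638), and its interaction of -0.998 ± 0.189 passed the adjusted p (0.022) but not the 2-fold minimum. Usp25 had -0.59 ± 0.18 in that comparison of levels (limma adjusted p = 0.0546). Otud1 had the widest values in pretreated cells, -0.93 ± 0.29 (limma adjusted p = 0.21), and in the interaction, 1.11 ± 0.40 (limma adjusted p = 0.185), and next to it in pretreated cells Otud7b had -0.43 ± 0.38 (limma adjusted p = 0.761).

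Of 16 genes of the ubiquitin chain and death-signalling complexes 12 were measured, and Ripk1, Ripk2, Traf3 and Ube2l3 were not analysed here. Cflar, which encodes the caspase 8 inhibitor c-FLIP, had 2492, 2866 and 1965 intensity units in restimulated, 942, 992 and 845 in pretreated, 3927, 5187 and 5189 in LPS once and 878, 814 and 883 in untreated cells. It was the 1 gene of the list called higher in either response. Of all genes 0.665% were called higher in the second and 3.90% in the first. Cflar rose by 1.37 ± 0.15 in the second (limma adjusted p = 0.00313) and 2.44 ± 0.15 in the first (limma adjusted p = 7.88e-06). The interaction was -1.07 ± 0.21 (limma adjusted p = 0.0239), a smaller second response, a call lost in 9 settings. It was at -0.92 without restimulated C and -0.93 after quantile normalization, both under 2-fold, and at adjusted p of 0.052 to 0.066 without any 1 of untreated A, B or C, LPS once B or C, or pretreated A or B. Its level was -0.97 ± 0.15 from LPS once (limma adjusted p = 0.00235). On the 6 arrays of the second response alone it was not called (adjusted p = 0.111).

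Rnf31, the catalytic subunit of the ligase of linear ubiquitin chains, had 0.89 ± 0.18 in the first response (limma adjusted p = 0.00412), under the 2-fold minimum. Traf5, an adaptor of the TRAF family, had 57.3, 161 and 52.6 intensity units in restimulated and 272, 215 and 146 in LPS once cells, a difference of -1.20 ± 0.33 (limma adjusted p = 0.035), a call lost in 12 settings. Among these were restimulated C left out (-0.96, adjusted p = 0.0841), each untreated array, LPS once A or B, pretreated A or C or restimulated A left out, only the arrays compared (adjusted p = 0.195), and the mean of all its probe sets (-0.61). It had -1.22 ± 0.33 in the second response (limma adjusted p = 0.0699) and -1.46 ± 0.46 in the interaction (limma adjusted p = 0.129). In pretreated cells limma called none of the 12, none passed an unadjusted p under 0.05, and the widest values were -0.35 ± 0.28 for Traf6 and 0.26 ± 0.33 for Traf5.

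**Figure D4:**
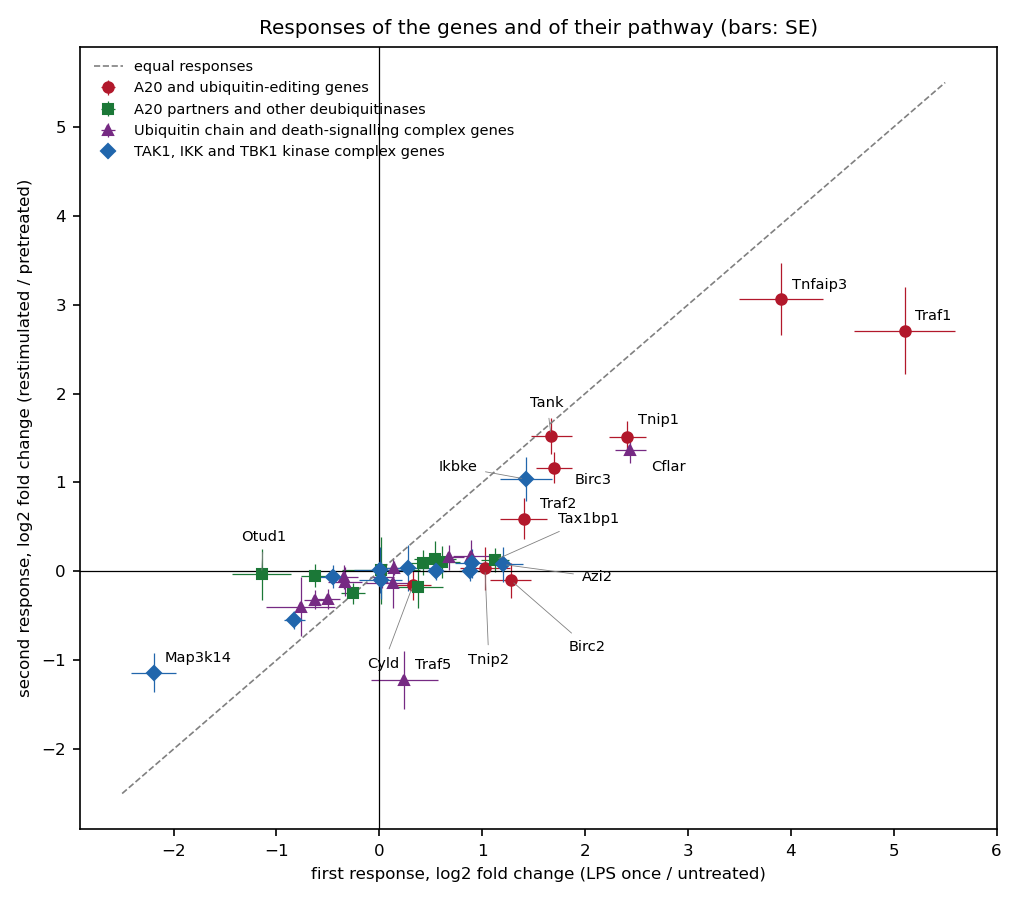
Each point is a gene, with its log2 fold change in the first response (LPS once over untreated) on the horizontal axis and in the second (restimulated over pretreated) on the vertical axis; bars are standard errors, n = 3 arrays per group, and the dashed line marks equal responses. Tnfaip3 (3.91 and 3.06) and Traf1 (5.11 and 2.71) lie farthest from the centre, Cflar (2.44 and 1.37) lies beside Tnip1, and Map3k14 (-2.19 and -1.14) lies at the lower left.

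Of 12 genes of the TAK1, IKK and TBK1 kinase complexes 11 were measured, and Chuk was not analysed here. In the first response 2 were called higher and 1 lower, where 3.90% of all genes were higher and 9.10% lower. Ikbke (IKK-epsilon) had 3510, 3616 and 2781 intensity units in LPS once and 1658, 1164 and 923 in untreated cells and rose by 1.42 ± 0.25 (limma adjusted p = 0.00193). Azi2, an adaptor of TBK1, had 2662, 1806 and 1971 in LPS once and 939, 907 and 895 in untreated cells and rose by 1.20 ± 0.20 (limma adjusted p = 0.00136), but by the mean of all its probe sets the value was 0.50 and not called (adjusted p = 0.072). Map3k14 encodes NIK, the kinase of the alternative NF-kappaB pathway, whose protein the Traf2, Birc2 and Birc3 ligase complex marks for destruction.

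Map3k14 had 146, 103 and 75.7 intensity units in restimulated, 258, 219 and 280.0 in pretreated, 40.5, 34.3 and 51.9 in LPS once and 317, 206 and 233 in untreated cells. It fell in both responses, with log2 fold changes of -1.14 ± 0.22 in the second (limma adjusted p = 0.0237) and -2.19 ± 0.22 in the first (limma adjusted p = 8.04e-05). The call in the first response held in every setting, at -1.38 with the mean of its probe sets. That in the second was lost in 8 settings: without restimulated C (-0.94, adjusted p = 0.0624), pretreated A or pretreated C, on only the arrays compared (adjusted p = 0.163), with 64 added before log2, after either scaling and with the mean of its probe sets, which gave the lowest size, -0.81. Map3k14 was higher in restimulated than in LPS once cells, by 1.07 ± 0.22 (limma adjusted p = 0.0102). This call was lost in 5 settings: with 64 added (0.68), with the mean of its probe sets (0.59, adjusted p = 0.074), on only the arrays compared (adjusted p = 0.0666), and without LPS once B or restimulated A. Its interaction was 1.05 ± 0.31 (limma adjusted p = 0.105).

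Ikbke had 1.04 ± 0.25 in the second response (limma adjusted p = 0.0517), and Azi2 had -1.12 ± 0.28 in the interaction (limma adjusted p = 0.0622). Tab2, which tethers TAK1 to ubiquitin chains, had 1805 to 2314 intensity units in restimulated and 4145 to 4987 in LPS once cells, a difference of -1.20 ± 0.16 (limma adjusted p = 0.00132). In pretreated cells limma called none of the 11, and 2 lay lower at p under 0.05 without adjustment, Tab3 at -0.52 ± 0.21 (limma adjusted p = 0.346) and Tab2 at -0.40 ± 0.16 (limma adjusted p = 0.372). At that unadjusted threshold 1133 of all 18193 genes lay lower.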

How the data were processed

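Gene expression was measured on 12 Affymetrix arrays, 4 groups of 3. The authors deposited linear intensity values, 1 per probe set and array; their program and scaling are not given in the sources, and the linear scale was inferred from their range. Per the labels' protocols, RNA was isolated with TriFast and labelled by the standard Affymetrix procedure. Of 45101 probe sets, 64 were controls, 34945 had 1 symbol in the platform annotation, 932 several and 9160 none; 34741 symbols were matched to RefSeq (GRCm38.p6), used for names, and 204 were kept. The intensity was transformed as log2(intensity + 16) without further normalization, and 18193 genes were represented by their brightest probe set.

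Limma 3.58.1 (R 4.3.3) fitted the 4 group means on all arrays (8 residual and 1.71 prior degrees of freedom) with 5 contrasts. Adjusted p-values are over all genes, errors beside fold changes are SE, and the fit was tested on simulated data. Alternatives were other added constants, quantile and 75th percentile scaling, a minimum mean of 50, the mean of probe sets, the replicate letter as a block, only the arrays compared, and each array left out. The letters pair the samples: deviations of the 18 same-letter pairs of arrays correlated at 0.25 to 0.656, and those of the 36 other pairs at -0.482 to 0.0134.

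The genes and lists were chosen with earlier results of these data known. All members were named, and of each pathway list up to 4 called genes per contrast with the largest change, or the 2 largest where under 2 were called; the 5 most similar genes were sought where group means spanned 1 on the log2 scale. No protein sequences were used here.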

Additional observations from a re-analysis of the deposited data

Results flagged for a closer look

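The second response of Birc2 differed from its first by -1.376 on the log2 scale (limma adjusted p = 0.0285), and that of Cflar by -1.072 (limma adjusted p = 0.0239). Both were picked out by the test of the difference between the responses of pretreated cells and of cells without pretreatment. The value was negative in all 3 letters for Birc2. Its largest size was in letter C, which holds the restimulated array that stood apart, and the part of that array was not tested beyond the values given without it. The call of Birc2 was lost on leaving out any of 8 arrays, and that of Cflar in 9 settings, among them each untreated array left out (adjusted p = 0.0588, 0.066 and 0.0634 without A, B and C) and quantile normalization (-0.930).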

How the results depend on the processing

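The 5 comparisons were recomputed under 20 alternative settings, except the interaction on only the arrays compared, and no called value changed sign. Tests of single probe sets, correlations, similar genes, markers and promoter counts were not recomputed. In the first response 7 of 8 calls held in every setting. In the second response none of 5 did: the count was 0 on only the arrays compared and 3 to 5 with an array left out, and Tnfaip3, Tnip1 and Tank kept their calls with each array left out. The interaction had 2 members lower with a common 75th percentile and 0 to 3 with an array left out (3 without pretreated A). Of the 3 calls in the level after LPS, 1, Birc2, held throughout. The replicate block left the counts of members at 8, 0, 5, 1 and 3 and changed no call of a member. Of 13 calls in the pathway lists, 5 held in every setting. With a common 75th percentile the median of all genes moved to 0.196 in the first response and 0.146 in the second, against 0.0426 and -0.0164, and the second responses of Birc2 and Cyld, not called, turned to 0.14 and 0.10; no member was called that was not before, except Tnip2 in the interaction.

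Over the whole table, the split of higher and lower genes in the first response was 709 and 1655 (30% higher), or 1033 and 1082 (48.8%) with a common 75th percentile. In the second it was 121 and 234 (34.1%), or 176 and 164 (51.8%) after quantile normalization and 209 and 152 (57.9%) with that percentile. In pretreated cells it was 53 and 56 (48.6%), or 82 and 58 (58.6%) and 105 and 61 (63.3%). Over all settings the higher and lower counts ran from 624 to 1033 and 1082 to 1908 in the first response, 26 to 105 and 25 to 97 in pretreated cells, 1 to 209 and 0 to 463 in the second response, 74 to 480 and 124 to 374 in the interaction, and 251 to 733 and 341 to 675 in the level after LPS. With 3 arrays a group, changes well under 2-fold were not resolved for the more variable genes. Nor were all larger ones, as the interaction of Traf1, -2.40 ± 0.70, which was not called (limma adjusted p = 0.101).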
